A study of Mus musculus with 2 samples.

Results

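The genes described are nuclear receptors and the PGC-1 coactivators. They were chosen by symbol from a list of 42 names, of which 41 had a row among the 20002 genes of the table. Nr1i3, which encodes the constitutive androstane receptor, was not analysed here. Genes that reached 10 scaled reads in neither library were left out, which removed none of the 41 and left 17469 of the whole table.

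Bulk RNA-seq of mouse kidney gave 1 library labelled Control and 1 labelled CKO, and the comparison asks which transcripts differ when Regnase-2, an RNA-degrading protein, is reduced. The labels call the CKO mice conditional knockouts specific to proximal tubules. In the study's methods these mice were given AAV9 with an shRNA against Regnase-2 by tail vein, a knockdown rather than a deletion, and the control mice AAV9 with an empty vector or, in another passage, a control shRNA. The study's mice were bought as C57BL/6J and kept under 12 hours of light and 12 hours of dark, these were injected at 11 weeks of age with no other treatment named, and the sequenced kidneys are dated to 14 weeks while the injection passage gives harvest at 16 weeks. AAV9 favours the proximal tubule without being limited to it, the RNA came from all cell types of the kidney, and the sex of these mice, the hour of collection and whether a library holds 1 mouse or a pool are not given in the sources used here.

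The columns, labelled as normalized counts, begin at 35 for Control and 51 for CKO. They were read as read counts plus a constant, an inference from the values, so 34 and 50 were taken off, which leaves depths of 38851231 and 43588721 reads. CKO was then brought to the scale of Control with a factor of 0.667, taken from the median ratio over genes. Read counts below are unscaled unless called scaled, and the Control value comes first in each pair. Log2 ratios are of scaled CKO over Control with 1 added to each. The range after a ratio is its 95% Clopper-Pearson interval, without the added 1, for counting error only. There is no replicate, so no difference was tested.

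Zc3h12b, the gene of Regnase-2, was counted with 47 and 59 reads. Its log2 ratio was -0.25 (-0.83 to 0.33) and turned to 0.16 with equal library totals, so a difference was not detectable at this depth. The target therefore offers no check of the labels, and the kidneys are named below by label only.

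Kidney markers were abundant under both labels. Slc34a1, a phosphate transporter of the proximal tubule, had 147064 and 98124 reads, and Umod of the thick ascending limb 90047 and 187056. In bulk tissue such differences can reflect a change in the share of cells of a type or in the RNA per cell, which cannot be told apart. Of 12 macrophage markers, 11 were 2-fold or more higher under the CKO label, and Csf1r was the exception at a log2 ratio of 0.51. Their median was 2.63, their summed reads were 4171 and, after scaling, 19220, and the most abundant by the mean of both libraries was Lyz2 with 518 and 9836 reads. Of 9 fibroblast and mural cell markers, 7 were at least 2-fold higher, with a median of 1.70 and sums of 9759 and 26997, led in the mean of both libraries by Col3a1 with 1107 and 9779 reads.

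Tubular injury markers were higher too. Of 9 with a row, 8 were at least 2-fold higher, with a median log2 ratio of 3.67 and sums of 25412 and 332869 scaled reads, most of them from Spp1 with 15360 and 412220 unscaled reads. Among the 8 were Lcn2, with 28 and 3797 reads, and Havcr1, with 1639 and 21332. Most proximal tubule markers lay on the other side. Of 14, 13 were below 0 and Slc5a12 was the exception at 0.41, with 25259 and 50338 reads. Among all genes with a mean of at least 1000 scaled reads, 67.5% were below 0. At the threshold 5 were at least 2-fold lower (2 with equal totals) and 0 higher, with a median of -0.80 (-0.38 with equal totals) and sums of 1746895 and 477351. Most of the difference between the sums came from Kap, the most abundant, with 987520 and 104163 unscaled reads, and the others summed to 759375 and 407909 scaled reads.

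The other lists were smaller or nearer 0. Median log2 ratios were -0.03 for 12 markers of other nephron segments, -0.02 for 6 podocyte markers and -0.07 for 9 endothelial markers, and each of these became positive with equal totals. Past 2-fold were 1 of the 12, which was Pvalb at -1.17 (-0.75 with equal totals), and 0 of the podocyte and endothelial markers. With equal totals the markers of other segments instead had 2 past it upward and 0 downward, and in the deposited values 3 and 0. Their summed scaled reads were 155367 and 189317, 8828 and 8529, and 16360 and 15240, led by Umod, Podxl and Plvap. Lymphocyte and granulocyte markers were few in reads but mostly higher under the CKO label. Of 6 T and NK cell markers that passed the filter, 5 were at least 2-fold higher, with a median of 1.71, and the most abundant, Trac, was at -0.44 with 99 and 109 reads, or 0.26 with the values as deposited. Of 3 neutrophil markers 2 were at least 2-fold higher, with a median of 1.64. The 7 T and NK cell markers with a row summed to 155 and 273 scaled reads, led by Trac, and the neutrophil markers to 42 and 173, led by Csf3r. Of 2 B cell markers, Ighm was higher at 1.67 and Cd79b was at 0.21, and they summed to 133 and 380. The part of these cell types in the results on the receptors was not tested.

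Nuclear receptors are transcription factors that bind DNA through zinc fingers, and many of them are switched by a small ligand such as a steroid, a retinoid, vitamin D, thyroid hormone, a bile acid or a fatty acid. Many bind as pairs with a retinoid X receptor and exchange corepressors for coactivators when the ligand arrives. Others, called orphan receptors, act without a known ligand, and some of these are controlled mainly by how much of them is made. In the kidney the family governs fatty acid oxidation and mitochondrial content in the proximal tubule, calcium and sodium reabsorption further along the nephron, and daily rhythms of transport.

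Promoter sequences are shown for the members of the early-response subfamily, which held the 2 largest log2 ratios, and for Rarb, whose promoter is a textbook retinoic acid target. RefSeq promoter windows of GRCm38.p6, from 250 bases before to 50 after a gene's start, matched 39 of the 42 listed symbols with 59 windows. Nr3c1, Ppargc1b and Thra had none. The letters TGACG, the core of the cAMP response element, were searched on both strands and are in capitals in the first 3 sequences, as CGTCA where they lie on the other strand. Nr4a1 is shown for the 250 bases before a start at chr15:101266596-101266845 on the plus strand, within the gene but outside its annotated exons. Nr4a2 is shown for the 250 bases before its start, chr2:57124004-57124253 on the minus strand, of which 0 lie in a GENCODE exon. For Nr4a3, where 152 of the 250 bases before the start lie in a GENCODE exon, 30 bases outside it at chr4:48045085-48045114 on the plus strand are shown, with 2 of the 4 matches. These lie within the span that RefSeq gives the gene, which begins upstream of this start. Rarb is shown for 30 bases at chr14:16575506-16575535 on the minus strand, within an annotated exon of Rarb, with GTTCANNNNNNGTTCA in capitals apart from the 6 unspecified bases.
Nr4a1: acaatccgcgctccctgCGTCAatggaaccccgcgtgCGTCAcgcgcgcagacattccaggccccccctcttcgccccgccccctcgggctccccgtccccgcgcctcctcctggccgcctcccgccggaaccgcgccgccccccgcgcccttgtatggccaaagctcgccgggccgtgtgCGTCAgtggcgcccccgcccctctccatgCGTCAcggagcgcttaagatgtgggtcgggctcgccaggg
Nr4a2: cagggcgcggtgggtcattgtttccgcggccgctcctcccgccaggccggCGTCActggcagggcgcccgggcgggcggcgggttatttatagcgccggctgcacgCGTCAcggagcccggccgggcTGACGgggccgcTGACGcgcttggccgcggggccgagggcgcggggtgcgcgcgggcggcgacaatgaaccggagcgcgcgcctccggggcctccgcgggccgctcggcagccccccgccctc
Nr4a3: cccatgtCGTCAcatTGACGtctcgcattc
Rarb: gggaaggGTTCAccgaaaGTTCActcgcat

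The windows of Nr4a1, Nr4a2 and Nr4a3 each held 4 matches to TGACG. The same letters occurred at least once in 20.8% of all 32851 windows and at least 4 times in 0.231% of them. Among the 59 windows of the listed genes, 17 held a match and 3 held at least 4, which were these. Relative to the start, the matches began at -233, -213, -69 and -40 in Nr4a1. In Nr4a2 they began at -200, -144, -123 and -111, and in Nr4a3 at -231, -213, -205 and -147. The direct repeat of Rarb began at -52 and was held by 25 windows, or 0.076% of all, and by no other window of the listed genes.

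Other motifs were also searched on both strands. AGGTCA, the core sequence bound by many nuclear receptors, was in 11 of the 59 windows and in 16.3% of all. AAAGGTCA, an element bound by Nr4a1 as a monomer that contains AGGTCA, was in 2 of the 59, for Rxra and Rxrg, and in 1.51% of all. TGACGTCA, the full cAMP response element that contains TGACG, was in 1 of the 59, for Nr6a1, and in 1.79% of all. CACGTG, the E-box bound by clock proteins, was in 6 of the 59 and in 7.15% of all. A match is a description of the letters and not of a binding site.

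Past 2-fold were 7 of the 41 members. Nr4a1, Nr4a2, Rorb and Rarg, 4 genes, were higher under the CKO label, and Nr0b2, Rxrg and Nr1h4, 3 genes, were lower, though Rxrg turned positive with the values as deposited. These shares, 9.76% and 7.32%, stand beside 13.4% and 5.35% of all 17469 genes past 2-fold in the same directions, so the counts alone do not set the receptors apart. With equal totals the members past 2-fold were 9 higher and 0 lower, beside 21.7% and 2.50% of all genes. Those added on the higher side were Nr1i2, Rarb, Esr2, Pgr and Nr4a3. The deposited values gave 6 and 0, beside 20.5% and 0.750%. These shares of all genes stand beside the counts of the gene lists in the same way. Above 0 in the scaling used were 51.5% of all genes. The interval lay wholly past 2-fold for 2 members, Nr4a1 and Nr4a2, and it spanned 0 for 13.

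The median log2 ratio of the members was -0.17, against 0.022 for all genes that passed the filter. Equal totals moved the median of all genes to 0.44 and the members' median to 0.25, and the values as deposited moved them to 0.59 and 0.48. The members' median minus that of all genes was -0.19 in the scaling used, -0.19 with equal totals and -0.12 in the deposited values. The sign of the log2 ratio held in all 5 scalings for 26 members, 17 of them positive and 9 negative. For the 17 this was fixed in advance, as the smallest positive ratio was 0.07, for Nr2c2. Equal totals and equal upper quartiles raise every ratio, and setting the median of all genes to 0 lowers each by 0.022. The deposited values carry a higher floor in CKO and no factor below 1. Only the negative signs could have turned. The 9 were Nr1h3, Nr1h4, Nr0b2, Rxra, Vdr, Esr1, Esrra, Nr1d1 and Nr2f6. For 13 members between -0.40 and -0.02 the sign turned positive both with equal totals and without any scaling of the deposited values. They were Ppara, Ppard, Nr1h2, Nr5a2, Rxrb, Thra, Nr3c1, Rora, Nr2f2, Esrrb, Esrrg, Ppargc1a and Ppargc1b. Thrb and Rxrg turned with the values as deposited.

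**Figure D1:**
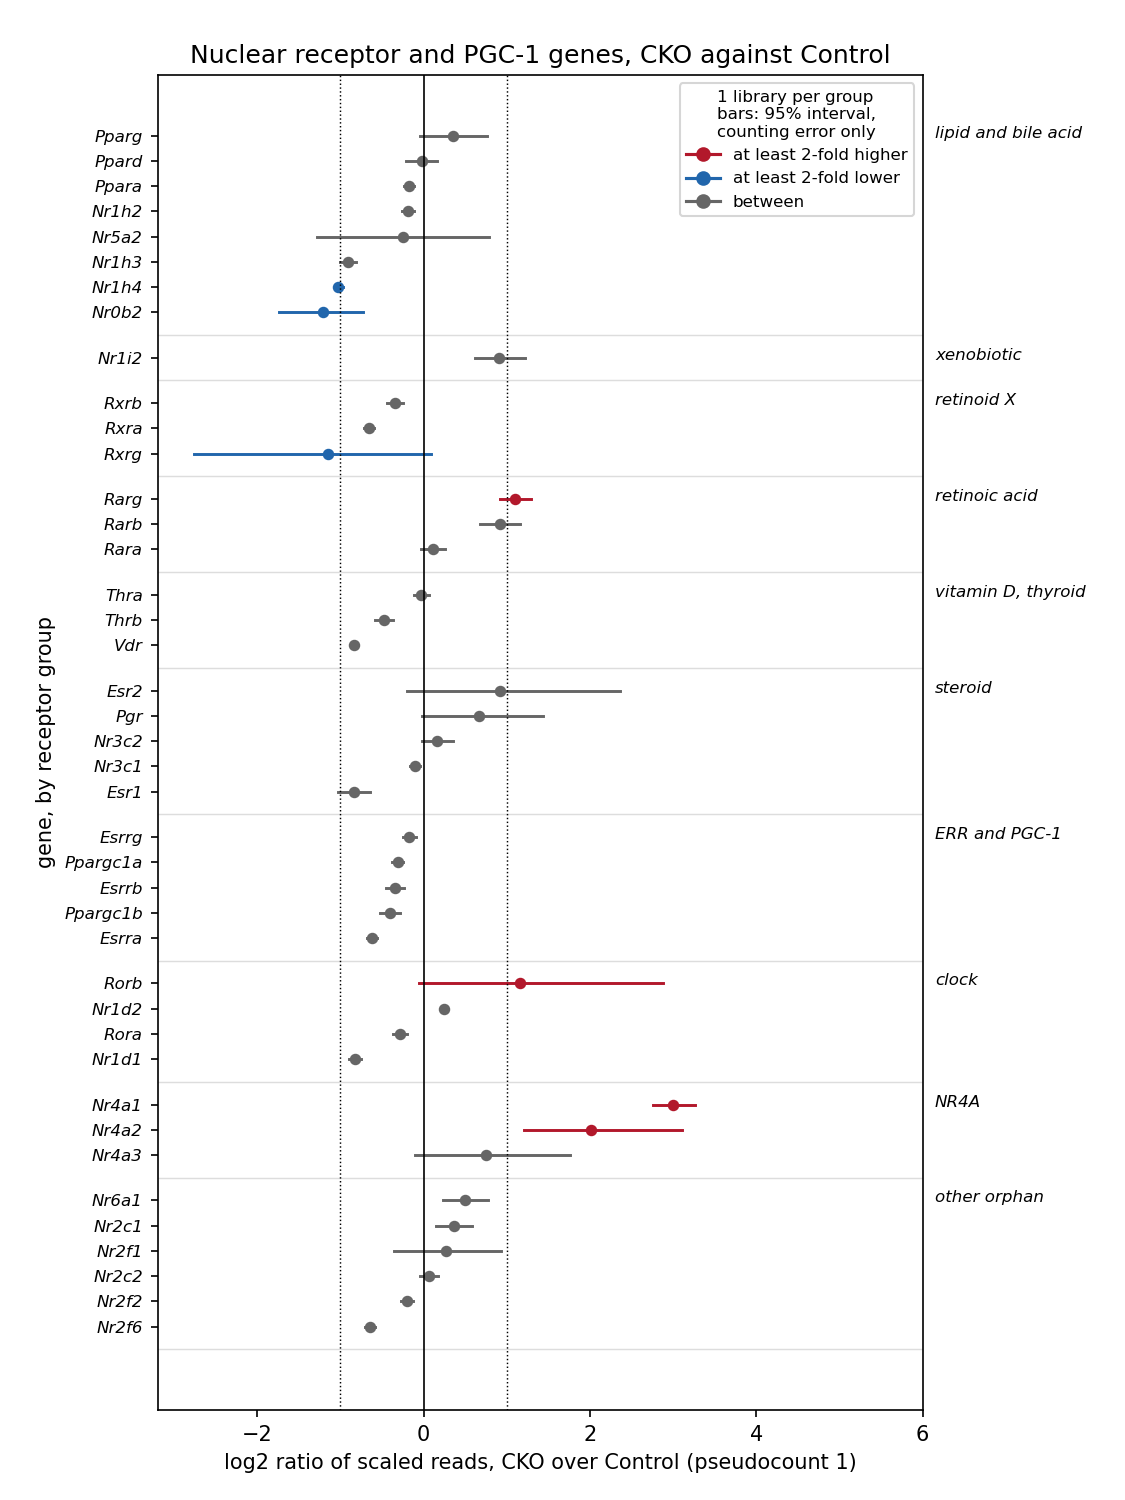
Log2 ratio of scaled reads, CKO over Control, for each of the 41 genes, grouped by receptor type. Points are the ratios with a pseudocount of 1, bars the 95% Clopper-Pearson intervals for counting error, dotted lines 2-fold, and there is 1 library per group. Nr4a1 at 3.0 and Nr4a2 at 2.01 have bars wholly beyond the dotted line, while the bars of Rxrg and Rorb cross 0. With equal totals 13 of the genes left of 0 move to its right.

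Abundant members mostly had ratios below 0. Of the 20 members with a mean of at least 1000 scaled reads, 18 had a ratio below 0 and 2, Nr1d2 and Nr2c2, above it, with a median of -0.33 that turned to 0.09 with equal totals. Among all 5944 genes at that level, 67.5% were below 0 and the median was -0.17, which turned to 0.25 with equal totals. At that level 0 members were past 2-fold upward and 1 was past it downward, Nr1h4, beside 2.83% and 5.01% of all genes. Of the 21 members with a lower mean, 15 were above 0 and their median was 0.37, beside 0.17 for all 11525 genes of that level. With equal totals the medians of the less abundant genes became 0.79 for the members and 0.59 for all.

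Levels between genes are compared as reads per kilobase of the longest GENCODE M21 transcript, scaled for CKO. Nr1h4 had the highest level in both libraries, 3184 and 1562 reads per kilobase, and Rorb the lowest, 0.646 and 1.58. Nr2f6, at 1898 and 1215, was second in both. Vdr went from rank 3 of 41 under the Control label to rank 7 under the CKO label, Nr1d2 from rank 9 to rank 3, and Nr4a1 from rank 30, at 55.6 reads per kilobase, to rank 15, at 447. The transcript in use may be shorter than the longest.

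**Figure D2:**
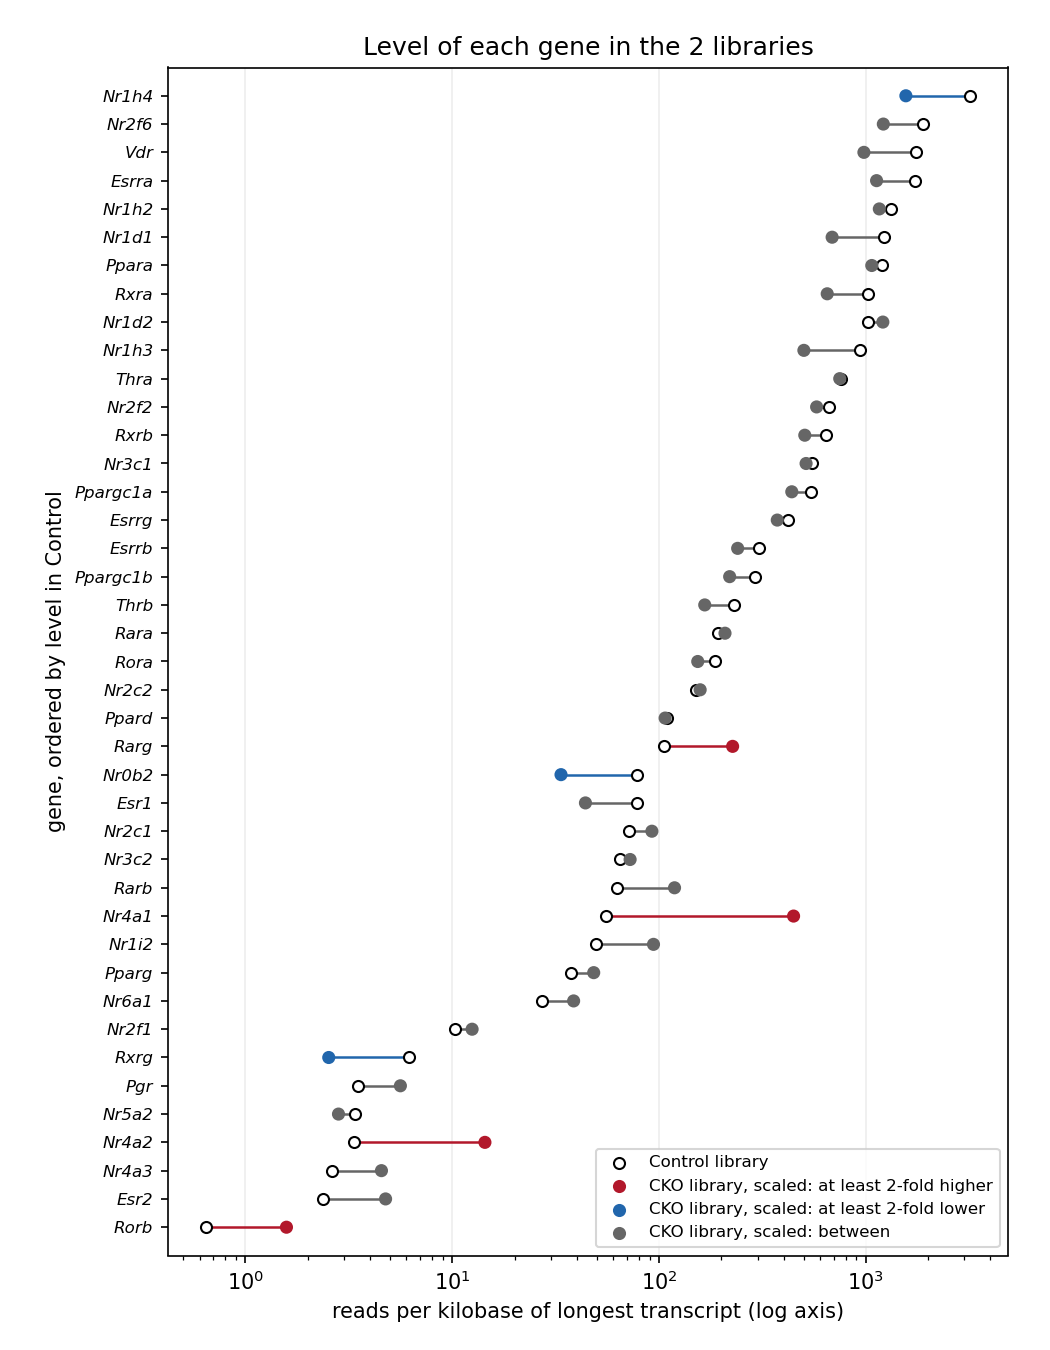
Reads per kilobase of the longest transcript on a log axis for each gene, ordered by the level in the Control library (open circles). Filled circles are the CKO library after scaling by the median gene ratio, in red where at least 2-fold higher, blue where at least 2-fold lower and grey between. Most of the more abundant genes have the filled circle on the left, and Nr4a1 has the longest line to the right. With equal totals every filled circle would lie further right, and 13 would cross from left to right of the open one.

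The NR4A receptors are orphan receptors made as early-response genes, within minutes of signals such as cytokines, calcium or cAMP, and act without a ligand pocket. Nr4a1 (Entrez 15370, chromosome 15 of GRCm38 from 101253902 to 101274795) was counted with 142 and 1713 reads, at a log2 ratio of 3.0 (2.76 to 3.26). It ranked 182 of 17469 genes from the top. Nr4a2 (Entrez 18227, chromosome 2 from 57106830 to 57124003) followed with 12 and 77 reads, at 2.01 (1.21 to 3.11). For Nr4a3 (Entrez 18124, chromosome 4 from 48045078 to 48086447), with 15 and 39 reads, the log2 ratio was 0.75 and the interval, -0.10 to 1.76, did not separate the libraries. The ratios of all 3 genes were positive in the scaling used, a sign that the other scalings could not turn. The interval of Nr4a3 applies to the scaling used only. With equal totals Nr4a3 was at 1.16, past 2-fold, and in the deposited values at 0.85. Nr4a1 is known to be made in macrophages and monocytes as well as in tubule cells. The macrophage markers, with a median log2 ratio of 2.63, were higher under the same label, and their part in this result was not tested.

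Retinoic acid receptors bind all-trans retinoic acid as pairs with a retinoid X receptor. They had positive ratios in the scaling used, a sign that the other scalings could not turn. Rarg (Entrez 19411, chromosome 15 from 102234938 to 102257522) stood at a log2 ratio of 1.10 (0.92 to 1.30), from 311 and 1005 reads. Rarb (Entrez 218772, chromosome 14 from 16430839 to 17082331) stood at 0.92 (0.68 to 1.16), from 195 and 554 reads. Of its 5265 exon bases, 1793 overlap Top2b on the opposite strand, and the strand setting of the counting is not given in the sources used here, so its reads are uncertain. Top2b was at 0.17. Rara had 653 and 1058 reads and a ratio of 0.11, from -0.03 to 0.25, with the highest level of the 3 per kilobase under the Control label, 193, against 105 for Rarg. Under the CKO label the order was the other way, with 208 for Rara and 227 for Rarg.

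The 3 retinoid X receptors had negative log2 ratios in the scaling used, 1 of them past 2-fold, though Rxrb turned positive with equal totals and Rxrg with the values as deposited. Rxra (Entrez 20181, chromosome 2 from 27676445 to 27763319) was the most abundant, at 5039 and 4787 reads, and its log2 ratio was -0.66 (-0.72 to -0.60). Rxrb, at 1687 and 1997 reads, had a ratio of -0.34 that turned to 0.08 with equal totals. Rxrg (Entrez 20183, chromosome 1 from 167598362 to 167639623) was near the limit with 13 and 8 reads, and its ratio of -1.14 (-2.76 to 0.09) became 0.30 with the values as deposited, so a difference was not detectable at this depth. Summed over the 3 genes, scaled reads were 6739 and 4528.

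Retinoid genes, a list of enzymes, carriers and targets of retinoic acid, stood above the median of all genes. Of 11 that passed the filter, 5 were at least 2-fold higher and 0 lower, with a median of 0.66 against 0.022. Aldh1a2, which makes retinoic acid, was the highest at 3.71, with 43 and 862 reads, and Rdh10 the lowest at -0.46, which turned to 0.13 with the values as deposited. Stra6, the receptor for retinol-binding protein, was at 2.46, Crabp2 at 1.96 with 2 and 16 reads (0.86 in the deposited values), Aldh1a1 at 1.61 and Cyp26b1, which degrades retinoic acid, at 1.55. Aldh1a2 and Crabp2 are also made by stromal cells, and 7 of 9 fibroblast and mural cell markers were higher under the same label. Their part in this result was not tested.

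Of the 8 genes grouped under fatty acid, sterol and bile acid sensing, Nr1h2, Nr1h3, Nr1h4, Nr0b2 and Nr5a2 are given here. These 5 had negative log2 ratios in the scaling used, 2 of them past 2-fold, though Nr1h2 and Nr5a2 turned positive with equal totals. The others of the group, the PPAR genes, are given below, with Pparg at 0.36. Nr1h4 (Entrez 20186, chromosome 10 from 89454234 to 89533645), the bile acid receptor FXR, was counted with 6409 and 4717 reads, at a log2 ratio of -1.03 (-1.08 to -0.97). Nr0b2 (Entrez 23957, chromosome 4 from 133553376 to 133556686), or SHP, is a repressor without a DNA-binding domain and a known FXR target. Its 89 and 57 reads gave a ratio of -1.21 (-1.73 to -0.73). With equal totals these ratios were -0.61 and -0.80, and in the deposited values -0.43 and -0.20, so neither was past 2-fold there. Of the liver X receptors, which sense oxysterols, Nr1h3 stood at -0.91, with 1868 and 1494 reads. Nr1h2 stood at -0.18, with 2640 and 3485 reads, and turned to 0.23 with equal totals. Nr5a2, or LRH-1, had the lowest level of these genes, with 16 and 20 reads, and its ratio of -0.25 (-1.29 to 0.78) turned to 0.15 with equal totals.

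Of 6 listed target genes of FXR, 3 had a row and lay on the same side as the receptor in the scaling used. Abcb11, Cyp7a1 and Fgf15 were not analysed here. All 3 were below 0 and none was past 2-fold, with a median log2 ratio of -0.91 (-0.49 with equal totals). Slc51a, a subunit of the basolateral bile acid exporter, was the lowest at -0.99, and Slc51b, the other subunit, was the highest at -0.50, which turned to 0.11 with the values as deposited. Proximal tubule markers, with a median of -0.80, lay on the same side, and their part in this result was not tested. Of 10 target genes of the liver X receptors, 7 were above 0, 3 were past 2-fold upward and 0 downward, and the median was 0.36. Apoe was the highest at 2.01, with 6746 and 40662 reads, followed by Pltp at 1.80 and the cholesterol exporter Abca1 at 1.55, and Abcg8, with 12 and 11 reads, was the lowest at -0.64, which turned to 0.40 with the values as deposited. Apoe and Abca1 are abundant in macrophages, of whose 12 markers 11 were higher under the same label, and their part in this result was not tested.

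The pregnane X receptor Nr1i2 (Entrez 18171, chromosome 16 from 38248349 to 38294849) binds drugs and steroids and drives their breakdown. From 127 and 360 reads its log2 ratio was 0.91 (0.62 to 1.22). It was past 2-fold with equal totals, at 1.33, and in the deposited values, at 1.34. Of 7 genes known as targets of this receptor and of the constitutive androstane receptor, 1 was at least 2-fold higher (2 with equal totals), Cyp3a13 at 1.67 with 20 and 99 reads, and 1 was lower, Cyp2b10 at -2.64 with 51 and 11 reads, or -0.47 with the values as deposited. The deposited values gave 3 higher and 0 lower. Their median was -0.16, which became 0.26 with equal totals.

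The peroxisome proliferator-activated receptors sense fatty acids, and Ppara is the main one of the proximal tubule. Ppara was counted with 4108 and 5471 reads, and its log2 ratio of -0.17 became 0.25 with equal totals. Ppard, with 405 and 598 reads, was at -0.02, which became 0.40 in the same way. Pparg, with 80 and 154 reads, was at 0.36 (-0.04 to 0.77). Their target genes were more spread than the receptors. Of 27 PPAR targets with a row, 22 were below 0 and 5 above, 4 were past 2-fold upward and 5 downward, and the median of -0.38 became 0.04 with equal totals. Most of them had a mean of at least 1000 scaled reads. Among all genes at that level, 67.5% were below 0 and the median was -0.17.

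Both sides held genes of fatty acid use. Cyp4a14, a fatty acid omega-hydroxylase, was the highest at 3.45, with 976 and 16009 reads, followed by Fabp1 at 2.01 with 20 and 125 reads and the lipid droplet protein Plin2 at 1.58. Among those on the lower side were Cyp4a12a at -2.39, with 21186 and 6054 reads, the fatty acid transporter Cd36 at -1.47, and the oxidation enzymes Ehhadh at -1.37 and Acadm at -1.34. With equal totals the counts were 4 and 2, and the deposited values gave 4 and 1. Cyp4a14 and Cyp4a12a belong to a gene family with close copies, which makes the assignment of their reads uncertain. The proximal tubule markers, with a median of -0.80, were lower under the CKO label, and their part in the PPAR targets was not tested.

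Estrogen-related receptors are orphan receptors that drive genes of mitochondrial respiration together with the PGC-1 coactivators. All 5 genes had negative log2 ratios in the scaling used, between -0.62 and -0.17, and all but Esrra turned positive with equal totals. Esrra (Entrez 26379, chromosome 19 from 6910977 to 6922048), the most abundant, stood at -0.62 (-0.69 to -0.56), from 4326 and 4209 reads. Esrrb, with 1312 and 1548 reads, was at -0.35, or 0.07 with equal totals. Esrrg, with 2255 and 3007, was at -0.17, or 0.25 with equal totals. Ppargc1a, or PGC-1 alpha, with 3512 and 4252, was at -0.31, or 0.11 with equal totals. Ppargc1b, the least abundant per kilobase, with 1062 and 1204, was at -0.40 (-0.52 to -0.28), or 0.02 with equal totals.

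Target genes of PGC-1 and the estrogen-related receptors, mostly parts of the respiratory chain and the citric acid cycle, were more alike. Of 20, 19 were below 0, 1 was at least 2-fold lower (0 with equal totals) and 0 were higher, with a median of -0.67 that was -0.25 with equal totals and -0.081 in the deposited values. Among all genes with a mean of at least 1000 scaled reads, the level of most of the 20, 67.5% were below 0. Perm1, a regulator of mitochondrial genes in muscle, was the lowest at -1.30 with 339 and 205 reads, and Nrf1 was the highest at 0.15. Cycs, or cytochrome c, was at -0.97 with 22587 and 17330 reads. Proximal tubule markers, with a median of -0.80, were lower under the same label, and their part in this result was not tested.

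**Figure D3:**
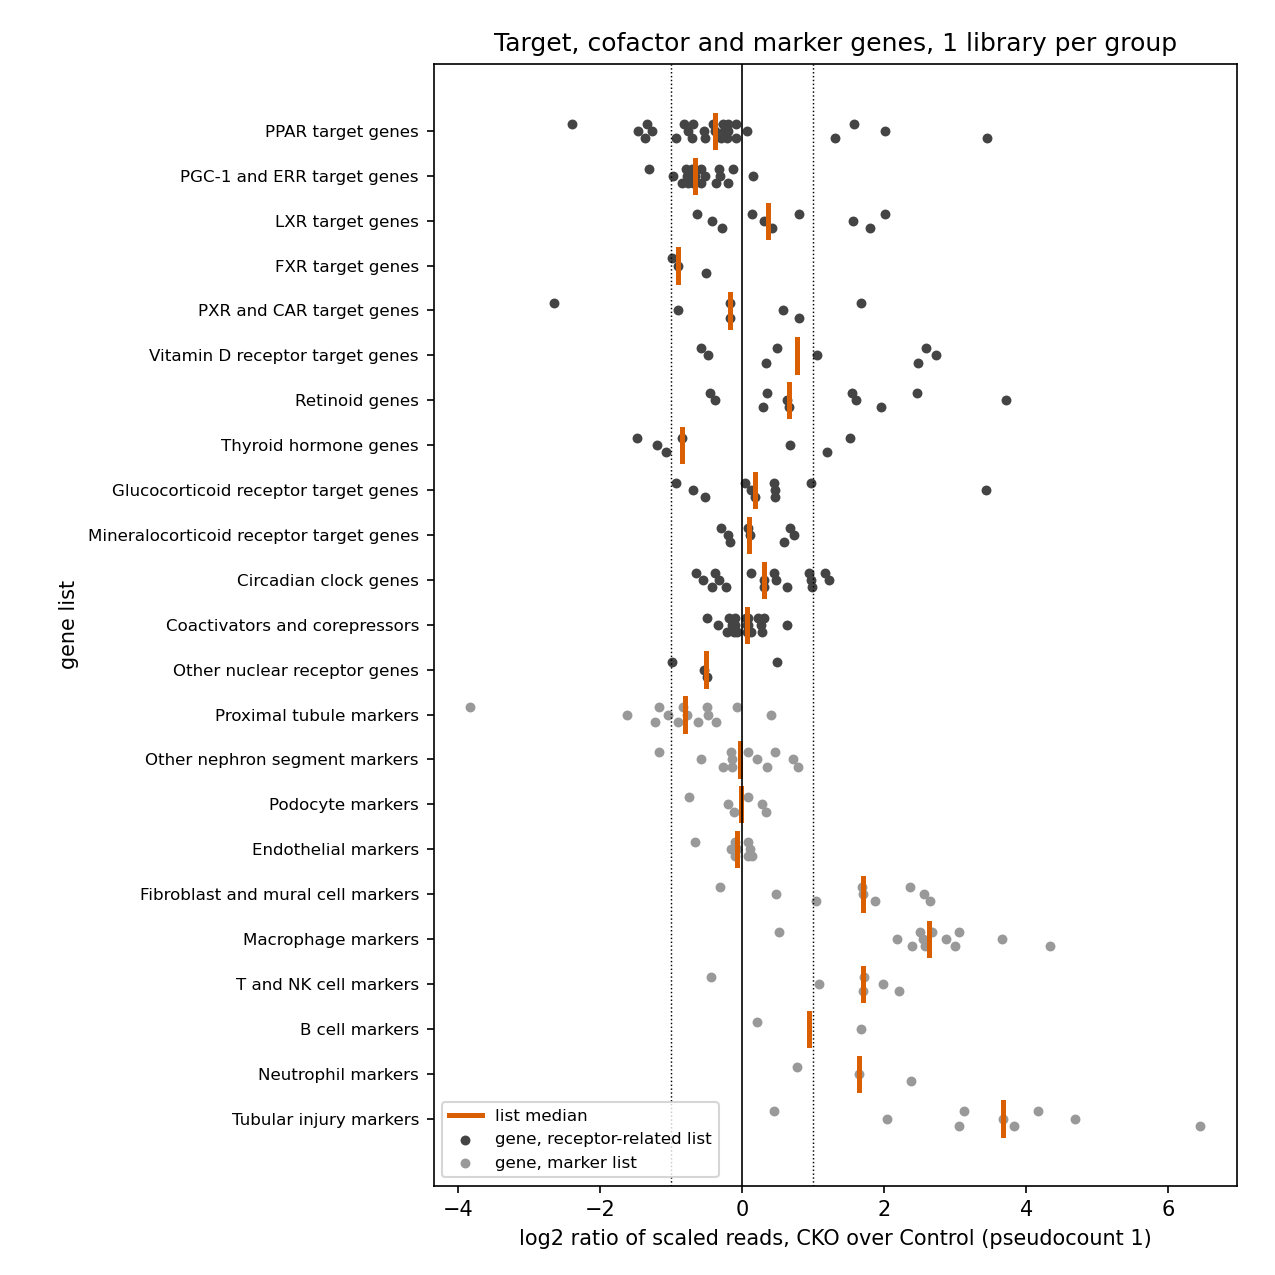
Log2 ratios of scaled reads, CKO over Control, for the genes of each target, cofactor and marker list that passed the filter. Each point is a gene, orange bars are list medians, dotted lines are 2-fold, and there is 1 library per group. The PGC-1 and ERR targets sit around -0.67, the coactivators and corepressors around 0.06, and the macrophage markers around 2.63. With equal totals every point moves to the right, and medians between -0.38 and 0 become positive.

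The vitamin D receptor was below 0, and 6 of 8 genes induced or repressed by vitamin D were above it. Vdr (Entrez 22337, chromosome 15 from 97854427 to 97908296) was counted with 7672 and 6417 reads, and its log2 ratio of -0.84 (-0.89 to -0.79) stayed negative in the 5 scalings. Of the 8 genes regulated by vitamin D, 4 were past 2-fold upward (4 with equal totals, 5 in the deposited values) and 0 downward. Their median was 0.77, or 1.19 with equal totals. Cyp24a1, which inactivates vitamin D, was the highest at 2.73 with 48 and 486 reads. The calcium channels Trpv5, with 263 and 2381 reads, and Trpv6, with 35 and 300, were at 2.59 and 2.48. Cyp27b1, which activates vitamin D and is repressed by it, was at 1.06 with 251 and 784 reads. The calcium-binding protein genes Calb1, the lowest at -0.58, and S100g, at -0.48, turned to 0.01 and 0.11 with the values as deposited.

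Thyroid hormone receptors lay at or below 0 in the scaling used. Thra, with 1867 and 2751 reads, had a log2 ratio of -0.03 that turned to 0.39 with equal totals. It shares 263 exon bases with Nr1d1 on the opposite strand, so the reads of both are uncertain. Thrb, the lowest in level of the vitamin D and thyroid hormone receptors, had 1436 and 1547 reads, and its ratio of -0.48 (-0.58 to -0.37) turned to 0.12 with the values as deposited. Of 7 thyroid hormone genes, 2 were past 2-fold upward and 3 downward, and the median was -0.84. Dio3, which inactivates the hormone, was the highest at 1.52 with only 4 and 20 reads, and the corepressor Hr was at 1.19. The lowest was Me1, or malic enzyme, at -1.48 with 23493 and 12637 reads, followed by Thrsp at -1.19. With equal totals the counts were 3 higher and 1 lower, and the deposited values gave 2 and 0 with a median of -0.16. The proximal tubule markers, with a median of -0.80, lay on the same side as the median of this list. Their part in this result was not tested.

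Steroid receptors differed among themselves. The glucocorticoid receptor Nr3c1 (Entrez 14815) had the highest level of the 5, with 3547 and 4964 reads, and its log2 ratio of -0.10 (-0.16 to -0.04) became 0.32 with equal totals. The mineralocorticoid receptor Nr3c2 stood at 0.16 (-0.02 to 0.35), from 383 and 643 reads. Esr1, or estrogen receptor alpha, stood at -0.83 (-1.03 to -0.64), from 498 and 419 reads, and kept its sign in the 5 scalings. The 2 others were low. Esr2, with 8 and 24 reads, stood at 0.92 (-0.20 to 2.36). The progesterone receptor Pgr, with 24 and 58 reads, stood at 0.67 (-0.02 to 1.44). For both a difference was not detectable at this depth in the scaling used. With equal totals Esr2 was at 1.315 and Pgr at 1.076, past 2-fold, and in the deposited values at 0.80 and 0.89.

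Among 11 glucocorticoid receptor targets 1 was at least 2-fold higher (2 with equal totals, 5 in the deposited values) and 0 lower, with a median log2 ratio of 0.17. The gene past 2-fold was Cdkn1a, a cell cycle inhibitor that is also a p53 target, at 3.43 with 167 and 2711 reads, and the lowest was Klf15 at -0.94. Fkbp5, a common readout of glucocorticoid action, was at -0.52 with 5033 and 5258 reads, or 0.07 with the values as deposited, and Tsc22d3, or GILZ, at 0.17 with 1431 and 2423. Of 8 mineralocorticoid receptor targets, 0 were past 2-fold in either direction, with a median of 0.10. With equal totals 3 were past it upward, and 3 in the deposited values. The highest were the sodium channel subunits Scnn1g at 0.74 and Scnn1b at 0.67.

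The clock receptors bind shared DNA elements in opposition, the REV-ERB proteins as repressors and the ROR proteins as activators. Nr1d1, or REV-ERB alpha, was counted with 3321 and 2805 reads, at a log2 ratio of -0.83 (-0.90 to -0.76). Nr1d2, or REV-ERB beta, stood at 0.24 (0.19 to 0.30), from 4758 and 8455 reads. The pair, which usually cycles nearly in phase, was thus on different sides of 0 in all 5 scalings. Rora, with 2031 and 2511 reads, stood at -0.28, which became 0.14 with equal totals. Rorb (Entrez 225998, chromosome 19 from 18930609 to 19111196) was near the limit with 6 and 22 reads, at 1.16 (-0.06 to 2.88). A difference in Rorb was thus not detectable at this depth in the scaling used. With equal totals its ratio was 1.56, and in the deposited values 0.83.

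Of 17 other clock genes, 2 were at least 2-fold higher (6 with equal totals, 8 in the deposited values) and 0 lower. Among all genes 13.4% were at least 2-fold higher, or 21.7% with equal totals and 20.5% in the deposited values. The median log2 ratio of the 17 was 0.31. Past 2-fold were the kinase Csnk1e at 1.22, with 389 and 1365 reads, and the repressor Bhlhe41 at 1.17, with 156 and 528. Near it were Cry1 at 0.99, Per1 at 0.98 and Ciart at 0.95. The lowest were Nfil3 at -0.65 and Arntl, or BMAL1, at -0.56 with 166 and 169 reads, a gene that the REV-ERB proteins repress. Both turned positive with the values as deposited, to 0.03 and 0.13. Clock genes vary over the day, and any part of the hour of collection was not tested.

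In the scaling used the other orphan receptors stayed within 2-fold. Nr2f6 (Entrez 13864, chromosome 8 from 71374118 to 71381967) had the highest level of the 6, with 4210 and 4043 reads, and stood at a log2 ratio of -0.64 (-0.71 to -0.58). Of its 2983 exon bases, 1622 overlap Ocel1 on the opposite strand, which was at -0.99, so its reads are uncertain. Nr2f2, or COUP-TFII, of vessels and stroma, stood at -0.20 with 2808 and 3662 reads, which became 0.22 with equal totals. Nr2f1 was the lowest in level, with 33 and 60 reads and a ratio of 0.27 (-0.36 to 0.94). Nr2c1, with 267 and 517 reads, was at 0.37, Nr6a1, with 173 and 367, at 0.50 (1.01 in the deposited values), and Nr2c2, with 1152 and 1813, at 0.07. Nr2c2 shares 4590 of 14935 exon bases with Mrps25 on the opposite strand, which was at -0.27, so the reads of Nr2c2 are uncertain.

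Coactivators and corepressors carry out the receptors' effect on transcription, by opening or closing chromatin. Of 20 outside the set, 0 were past 2-fold in either direction (1 upward with equal totals and in the deposited values), and the median log2 ratio was 0.06, against 0.022 for all genes. The highest was Pprc1, a relative of the PGC-1 coactivators, at 0.64 with 461 and 1075 reads, and the lowest was the steroid receptor coactivator Ncoa2 at -0.49 with 3123 and 3332, which turned to 0.10 with the values as deposited. The corepressor Ncor1 was at -0.34, which turned to 0.08 with equal totals. With equal totals the median of the list was 0.48, beside 0.44 for all genes.

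Of the nuclear receptor genes outside the set, 4 passed the filter and none was past 2-fold (1 in the deposited values), with a median log2 ratio of -0.51 that became 0.09 with the values as deposited. The lowest was Hnf4a, a regulator of proximal tubule identity, at -0.99 with 38137 and 28756 reads and an interval of -1.01 to -0.97, and it stayed negative with equal totals at -0.57. Hnf4g, at -0.54 with 534 and 552 reads, was at 0.08 in the deposited values. Nr0b1, with 3 reads in each library, did not pass the filter.

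**Figure D4:**
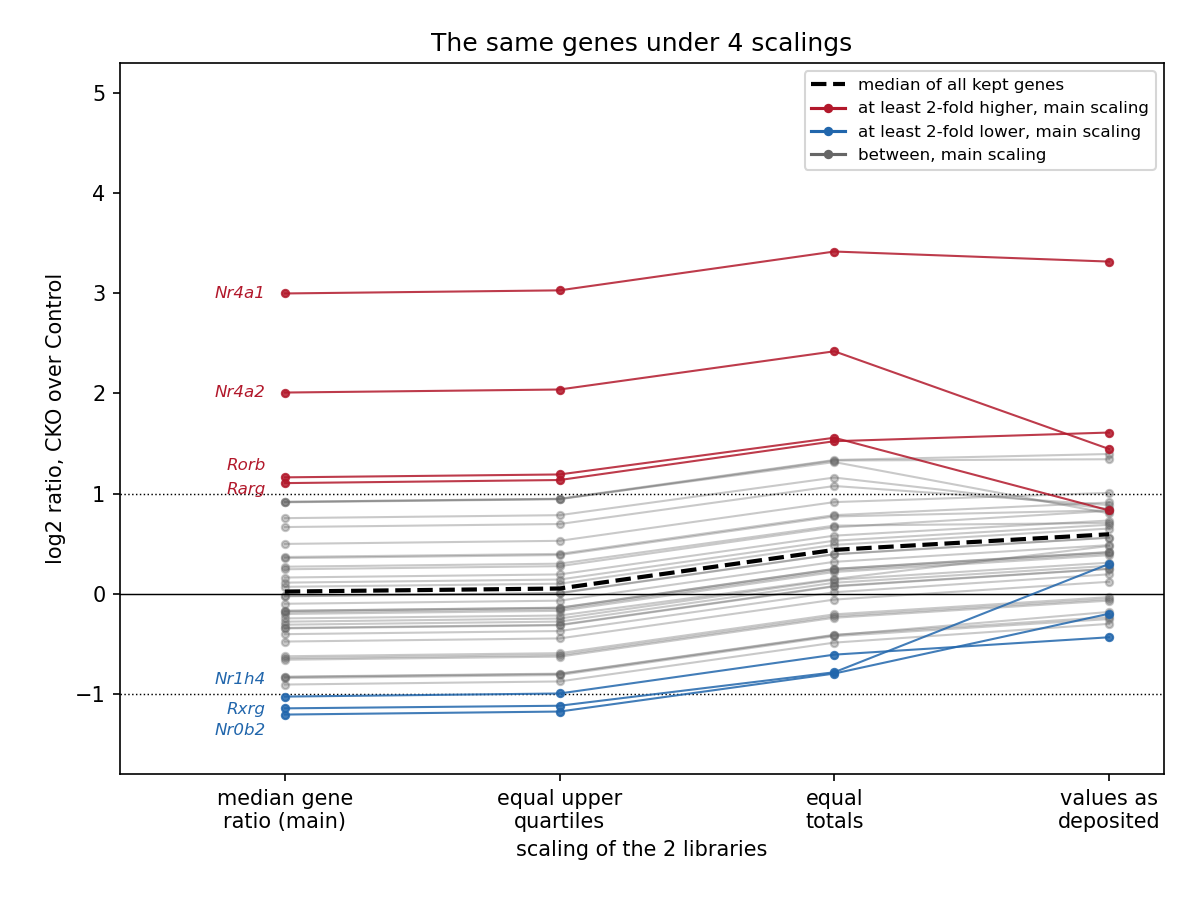
Log2 ratio, CKO over Control, of each of the 41 genes under 4 scalings of the 2 libraries, with the median of all genes that passed the filter as a dashed line. Red and blue lines are genes at least 2-fold higher or lower in the scaling used, and grey lines the rest. The dashed line moves from 0.022 to 0.59, Nr4a1 stays the highest, and Rxrg turns from -1.14 to 0.30 with the values as deposited.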

How the data were processed

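Poly(A) RNA-seq libraries from kidney, 1 labelled Control and 1 labelled CKO, were analysed from a table of 20002 genes by Entrez ID. According to the submitters' processing notes and the study's methods, the authors used a stranded kit, aligned reads with STAR 2.7.3a to mm10, counted them with HTSeq and normalized with DESeq2. Cufflinks 2.2.1 values were not used here. The deposited values are whole numbers with a floor in each column and no common scale, so their unit was recorded as a score. That they are reads plus a constant is an inference, on which the depths and intervals rest.

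The floor (column minimum minus 1) was subtracted from each column, and CKO was multiplied by the median gene ratio, 0.667. Genes that reached 10 scaled reads in either library were kept, with a pseudocount of 1 and a threshold of 2-fold. The 95% Clopper-Pearson intervals cover counting error only. Depths were 38851231 and 43588721 reads, and the median member interval reached 0.12 log2 units to either side. With 1 library per group no test was made. Members and gene lists were chosen with earlier results of these data known. All 41 members matched RefSeq (GRCm38.p6) by Entrez ID, and all 41 had a GENCODE M21 transcript length, taken as the longest.

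Given in full were Zc3h12b, members past 2-fold, and the highest and lowest member of each group by level. Of each list, the counts past 2-fold, the median and the extremes were given, and members past 2-fold by name where they were 6 or fewer, apart from a few genes that are counted but not named. Other genes of the lists, and the motifs, were chosen after their values were seen. Target and cofactor lists covered PPAR, PGC-1 and ERR, LXR, FXR, PXR and CAR, vitamin D, retinoid, thyroid, glucocorticoid, mineralocorticoid, clock, cofactor and other nuclear receptor genes, and marker lists covered the cell types named. Alternatives were other pseudocounts, filters, thresholds, scalings and floors. The steps were tested on simulated data. Python 3.11.15, numpy 2.4.6, pandas 2.3.3, scipy 1.17.1 and matplotlib 3.10.9 were used.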

Additional observations from a re-analysis of the deposited data

How the results depend on the processing

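No paired analysis was possible because only 1 library stood in each group. The number of members at least 2-fold higher, 4, lay between 3 and 6 with pseudocounts of 0.1 and 10, no filter, a minimum of 50 scaled reads, equal upper quartiles, the median of all genes set to 0, a floor at the column minimum and the values as deposited. The number at least 2-fold lower, 3, was 2 or 3 in these settings apart from the last, and the members' median log2 ratio lay between -0.19 and -0.14 there. A threshold of 1.5-fold gave 9 higher and 10 lower, and 4-fold gave 2 and 0, by its construction. Equal totals gave 9 higher, 0 lower and a median of 0.25. The values as deposited gave 0 lower and a median of 0.48, and turned Rxrg to 0.30. Equal totals use a larger factor for CKO, 0.891, which shifts every ratio upward. The deposited values, labelled as normalized counts, carry the floors and were compared with no factor applied here. Of 287 single-member ratios over 7 settings, 221 stayed within their counting interval, 65 went beyond it, all of them with equal totals or as deposited, and 1, Rxrg, had been past 2-fold and changed sign. Depth limits the low members, of which 10 had fewer than 100 reads in the library labelled Control. Which scaling is right cannot be told from 2 libraries, and the cause was not tested.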
